A study of Mus musculus with 8 samples.

Results

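The mitochondrial ribosomal proteins were described from the brains of diabetic mice on a ketogenic or a control diet. All gene symbols made of Mrpl or Mrps followed by a digit were taken, which gave 78 genes of 17983 in the deposited table, 49 of the large subunit (Mrpl) and 29 of the small subunit (Mrps) by symbol. All 78 matched a GENCODE gene and all 78 passed the filter on low counts. The rule that picks the genes uses names alone, but it was set with earlier results of these data known.

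The mitochondrial ribosome makes the membrane core subunits of the respiratory chain and of ATP synthase, which are encoded in mitochondrial DNA. Its proteins are encoded in the nucleus, made in the cytosol and imported, while its ribosomal RNAs come from the mitochondrial genome. Some of its proteins descend from the bacterial ribosome and others are particular to mitochondria. Brain relies on oxidative phosphorylation, and a ketogenic diet, rich in fat and almost free of carbohydrate, raises the supply of ketone bodies that mitochondria oxidise.

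RNA of whole brain was sequenced from male db/db mice, which carry a leptin receptor mutation and become obese and diabetic. The 4 libraries called control came from mice on a normal diet and the 4 called ketogenic from mice on the ketogenic diet. All 8 libraries share the db/db genotype, and no lean genotype was analysed here. Feeding started at 9 weeks of age, the brains were collected at 6 months, and 1.3 ug of total RNA went into each SMARTer messenger RNA library. Nothing in the labels ties a library to a single animal, so p-values measure only the spread between these samples, which may be technical.

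Total counts per library ran from 34450860 to 38738800 in control and from 38163795 to 40233361 in ketogenic libraries, and a member held between 249 and 2726 counts per library on average, with a median of 1040. Marker genes of neurons (summed level 6722 to 8397 CPM, counts scaled to library size), oligodendrocytes (4721 to 6250) and astrocytes (3521 to 4482) were present throughout, as fits the brain label, while the 3 liver markers summed to 0.14 to 1.45 and each was at 0 in at least 1 library. Some cell type markers moved with diet at an edgeR adjusted p under 0.05, a threshold that 6.52% of all tested genes passed. Of the 5 blood markers, which are hemoglobin genes and the erythroid gene Alas2, 4 rose, and their sum ran from 15.3 to 52.4 CPM in control and from 69.4 to 114 CPM in ketogenic libraries. Of the 6 astrocyte markers, 4 fell (Aqp4, Gfap, Aldh1l1 and Gja1), with sums of 3718 to 4482 in control and 3521 to 4068 in ketogenic libraries. Of the 6 microglial markers, 1 rose (Tmem119), with sums of 309 to 341 and 317 to 390 CPM. The 5 choroid plexus markers had 0 past the threshold by edgeR, 3 at an unadjusted p under 0.05 and 1 by DESeq2, with sums of 585 to 1131 in control and 1056 to 1364 in ketogenic libraries. The part of these cell types in the values given here was not tested.

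Messenger RNAs of the mitochondrial ribosome differed little between the diets. Of the 78 genes, Mrpl9 rose and Mrps15 fell, and the other 76 did not pass an adjusted p of 0.05 in edgeR's quasi-likelihood F test with Benjamini-Hochberg adjustment over all 14895 genes tested. The share past the threshold was 2.56% of members, beside 6.52% of all tested genes, of which 3.30% were higher and 3.22% lower. The median log2 fold change, ketogenic minus control, was 0.04 over the members, beside -0.0029 over all tested genes. Members' quartiles were -0.09 and 0.14 and their extremes -0.36 and 0.32, with a median standard error (SE) of 0.08. In whole tissue, fewer cells of a type and less RNA per cell cannot be told apart.

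Positive changes were more frequent than negative ones among members, at 49 against 29, beside 7346 against 7549 over all tested genes. At an unadjusted p under 0.05, 16 members (20.5%) were higher and 6 (7.69%) lower, beside 12.1% and 12.5% of all tested genes. By DESeq2's Wald test 6 members (7.69%) were higher and 3 (3.85%) lower at an adjusted p under 0.05, beside 6.02% and 5.84%. All 4 ketogenic values lay above all 4 control values for 5 members (6.41%, beside 7.22% of all tested genes) and below them for 3 (3.85%, beside 6.51%). The 95% interval of the change lay within 1.5-fold in either direction for 77 members, the exception being Mrpl32, and for 11218 of all 14895 genes. The members' count rested on single libraries. With control replicate 4 left out it was 11, with 8 higher and 3 lower. It was 1 with ketogenic replicate 4 left out and 0 when any of the other 6 libraries was, and over the same 8 fits the count for all genes ran from 146 to 1900.

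**Figure D1:**
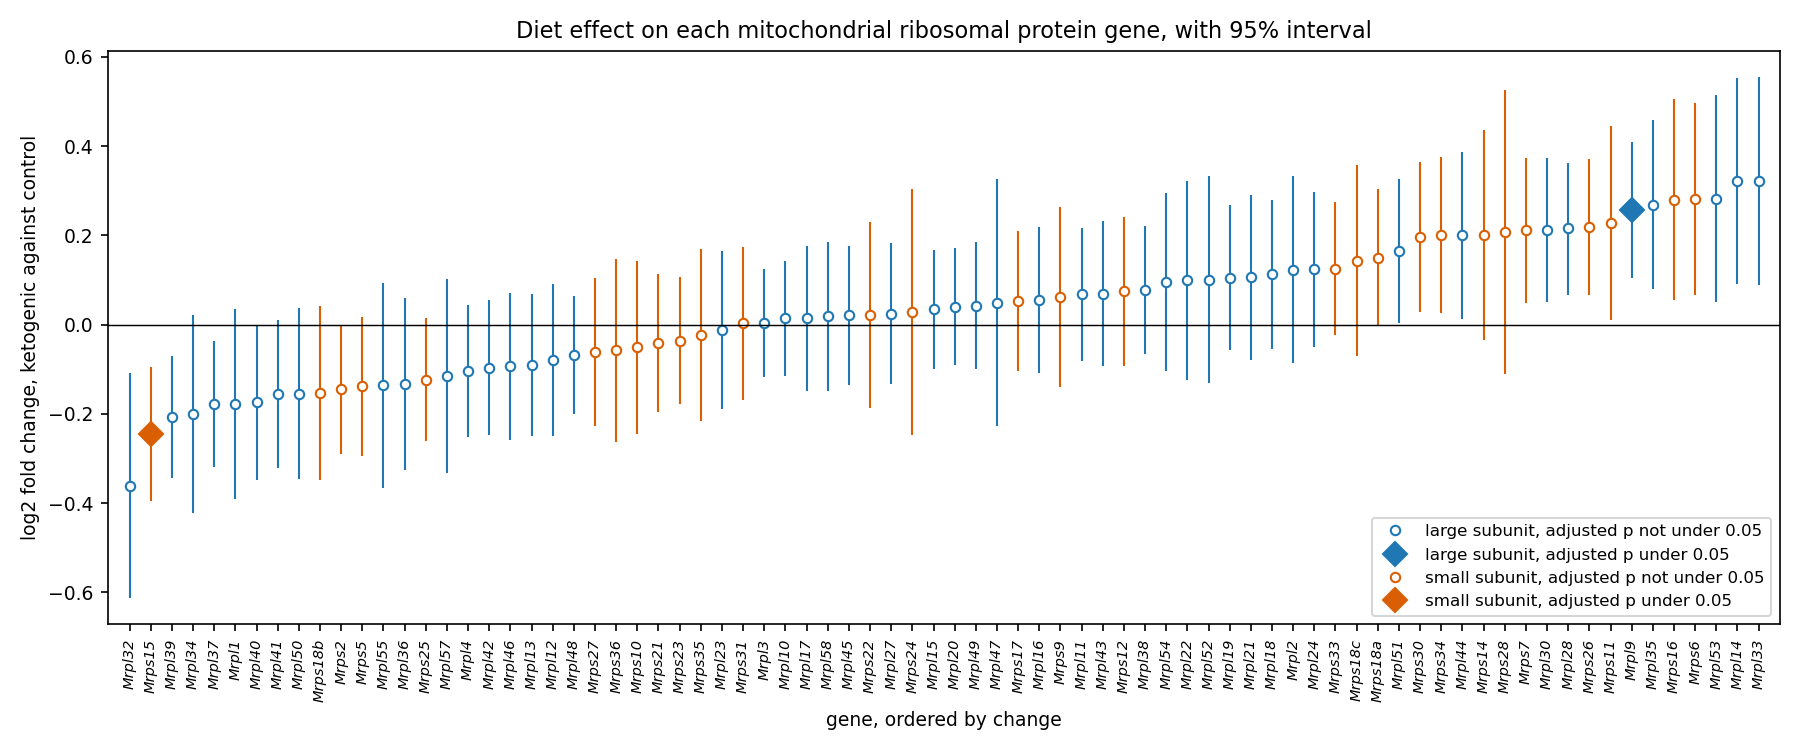
Log2 fold change of ketogenic against control for each of the 78 members, ordered by size, with 95% intervals from the edgeR fit, large subunit in blue and small subunit in orange. Filled diamonds mark Mrpl9 and Mrps15, the 2 members past the threshold, and the points run from -0.36 to 0.32.

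Mrpl9 encodes a large subunit protein with a bacterial counterpart, and its gene (ENSMUSG00000028140.13) spans chr3:94443318-94451130 on the plus strand of GRCm38. Its level was 25.9, 24.5, 27.7 and 26.9 CPM in control replicates 1 to 4 and 32.9, 31.65, 31.6 and 29.2 CPM in ketogenic replicates 1 to 4. All ketogenic libraries were above all control libraries. Means were 26.2 ± 1.38 and 31.3 ± 1.58 CPM (SD, n = 4 each), a log2 fold change of 0.26 ± 0.07 (SE) or 1.20-fold, with a 95% interval of 0.11 to 0.41 and an edgeR adjusted p of 0.0445. The call stood without control replicate 4 or ketogenic replicate 4 and was lost without each of the other 6 libraries, with adjusted p-values from 0.0337 to 0.125. Mrpl9 overlaps Oaz3 on the opposite strand, and whether the counting used strand is not given in the sources used here, so reads of the pair cannot be told apart.

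Mrps15, a small subunit protein with a bacterial counterpart that binds ribosomal RNA, is encoded by ENSMUSG00000028861.13 at chr4:126046925-126055532 on the plus strand. It stood at 37.6, 36.2, 39.5 and 34.9 CPM in the control libraries and at 31.7, 33.2, 28.8 and 31.3 CPM in the ketogenic ones. The groups did not overlap, and ketogenic replicate 3 was lowest. From 37.1 ± 1.97 to 31.3 ± 1.83 CPM (SD, n = 4 each), it fell by 0.25 on the log2 scale (SE 0.07), with a 95% interval of -0.40 to -0.10 and an edgeR adjusted p of 0.0482. The call stood only without control replicate 4 among the 8 fits that leave out a library, in which adjusted p ran from 0.0284 to 0.131.

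The promoters of these 2 members are shown because they carry the only calls among the 78. Each runs from 250 bases before to 50 bases after the RefSeq start in GRCm38.p6, on the plus strand, Mrpl9 at chr3:94443086-94443385 and Mrps15 at chr4:126046678-126046977. Capitals mark matches to the 6 motifs searched on both strands, which were the consensus site of NRF1, the ETS site CCGGAAG, the YY1 site AAGATGGCG, the E-box CACGTG, the SP site GGGCGG and the TATA box TATAAA.
Mrpl9: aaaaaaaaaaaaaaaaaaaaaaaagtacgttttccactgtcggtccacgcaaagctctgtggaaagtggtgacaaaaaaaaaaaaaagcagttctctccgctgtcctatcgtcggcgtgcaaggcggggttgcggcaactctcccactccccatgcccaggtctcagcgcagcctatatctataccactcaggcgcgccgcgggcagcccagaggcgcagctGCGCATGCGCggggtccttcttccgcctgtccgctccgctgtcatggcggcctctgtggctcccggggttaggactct
Mrps15: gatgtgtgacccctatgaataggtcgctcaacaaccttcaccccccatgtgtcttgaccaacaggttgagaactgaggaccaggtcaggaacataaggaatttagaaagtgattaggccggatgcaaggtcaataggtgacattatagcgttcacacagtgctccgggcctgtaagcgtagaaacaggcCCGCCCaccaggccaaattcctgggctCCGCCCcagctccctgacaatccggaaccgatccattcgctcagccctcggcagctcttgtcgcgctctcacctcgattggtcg
The Mrpl9 promoter held 1 NRF1 match, which begins at position -28 from the start. The Mrps15 promoter held 2 SP matches, read on the opposite strand as CCGCCC, at positions -61 and -34, and none of the other 5 motifs. A match is a description of the letters and not a site of binding.

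The 3 largest changes in each direction that missed the threshold were in the large subunit, with the small subunit gene Mrps6 level with the third positive one (log2 change 0.28 for both, edgeR adjusted p = 0.0993 for Mrps6). Mrpl14, which contacts ribosomal RNA at the face toward the small subunit, was at 9.95, 9.71, 11.2 and 8.93 CPM in control and 10.85, 12.8, 12.8 and 13.3 CPM in ketogenic libraries, a log2 change of 0.32 ± 0.11 (edgeR adjusted p = 0.0827). Its groups overlapped through control replicate 3. Mrpl33, with a bacterial counterpart, was at 9.12, 8.32, 8.99 and 7.45 CPM in control and 10.4, 11.5, 10.2 and 10.2 CPM in ketogenic libraries, a change of 0.32 ± 0.11 (edgeR adjusted p = 0.086) without overlap. Mrpl53, a mitochondria-specific protein, was at 11.2, 12.35, 11.3 and 15.0 CPM in control and 14.4, 16.0, 16.4 and 13.9 CPM in ketogenic libraries, a change of 0.28 ± 0.11 (edgeR adjusted p = 0.125). Control replicate 4 lay among the ketogenic values of Mrpl53, and without it the adjusted p was 0.0249. Mrpl14 and Mrpl33 overlap coding genes on the opposite strand, and Mrpl53 and Mrps6 on the same strand. Shared reads cannot be told apart there, while Mrpl32, Mrpl39 and Mrpl34, given next, overlap no coding gene. With a trend on GC and length removed (described below), Mrpl14, Mrpl33, Mrpl53 and Mrps6 were at 0.26, 0.18, 0.15 and 0.18. Mrpl32, Mrpl39 and Mrpl34 were then at -0.395, -0.18 and -0.35.

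On the negative side was Mrpl32, whose protein is cut by the mitochondrial m-AAA protease before assembly. Its control values were the widest among members relative to their mean, with a coefficient of variation of 19.3%. They were 22.3, 17.25, 18.1 and 13.95 CPM, against 13.6, 13.4, 13.7 and 15.1 CPM in ketogenic libraries, a log2 change of -0.36 ± 0.12 (edgeR adjusted p = 0.0765). Control replicate 4 was within the ketogenic range, and without it the adjusted p was 0.0134. Mrpl39, a mitochondria-specific protein, stood at 42.9, 41.8, 42.5 and 41.6 CPM in control and at 37.1, 34.1, 35.9 and 39.1 CPM in ketogenic libraries. Its control values spread by only 0.60 CPM (SD) and the groups did not overlap, but the change of -0.21 ± 0.06 had an edgeR adjusted p of 0.0641. Mrpl34, with a bacterial counterpart, had 18.0, 13.3, 15.3 and 15.6 CPM in control and 14.1, 13.9, 14.2 and 11.98 CPM in ketogenic libraries, with overlap and a change of -0.20 ± 0.10 (edgeR adjusted p = 0.255).

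**Figure D2:**
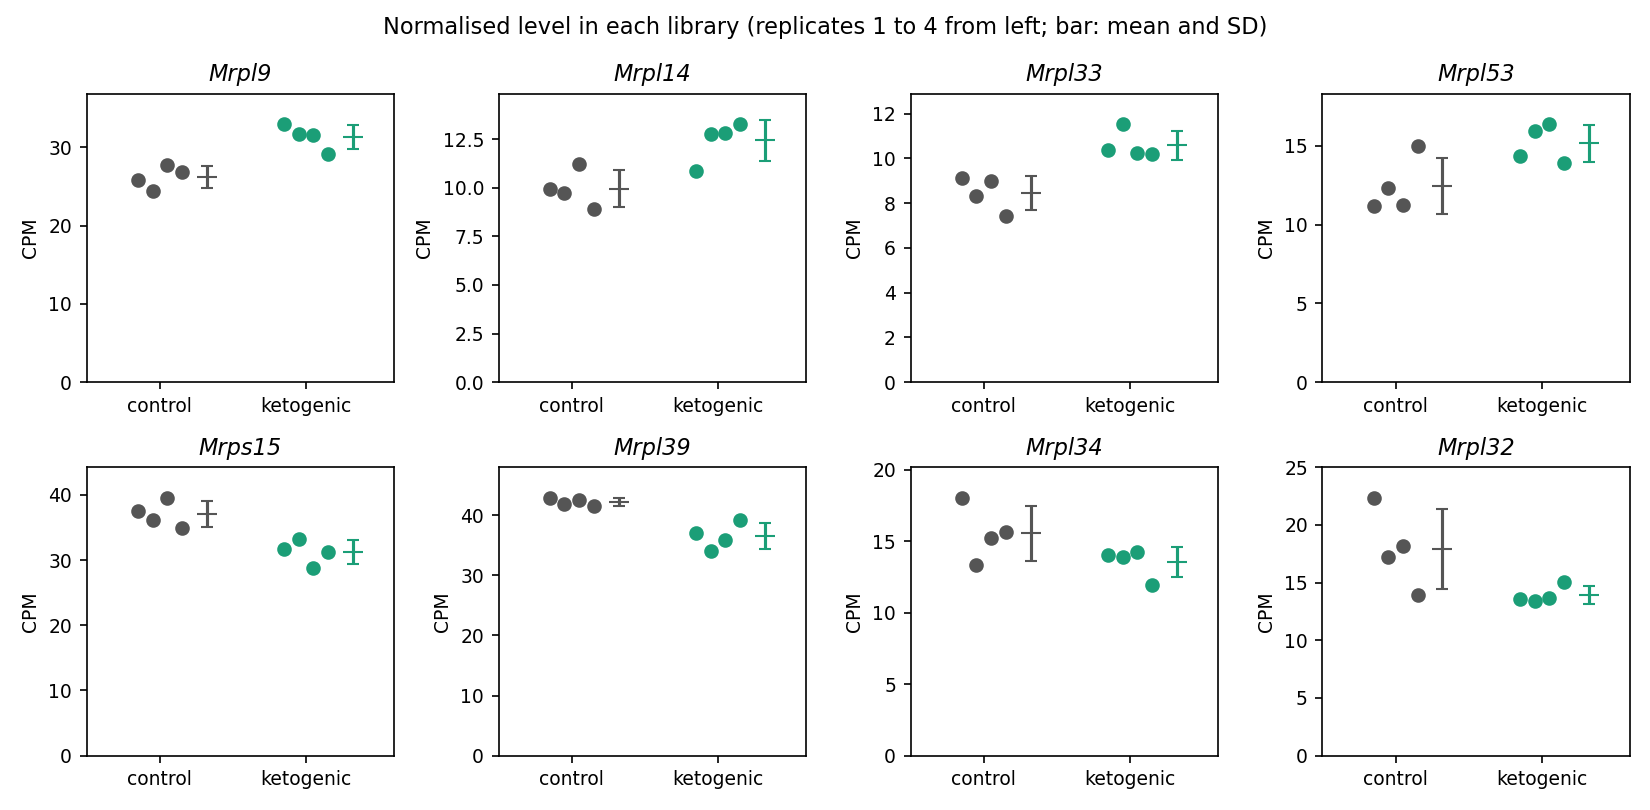
TMM-scaled CPM of the 2 members past the threshold and of the 3 in each direction with the largest changes that missed it, one point per library, replicates 1 to 4 from left in each group, bars giving the mean and SD. The groups are apart for Mrpl9, Mrpl33, Mrps15 and Mrpl39 and overlap for Mrpl14, Mrpl53, Mrpl34 and Mrpl32.

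The other members without overlap were Mrpl28 (log2 change 0.22), Mrps26 (0.22) and Mrpl30 (0.21) above control and Mrps25 (-0.12) below it, named here after their values were seen. Their edgeR adjusted p-values were 0.0716, 0.0762, 0.0981 and 0.255. Mrpl28 shows the pattern, with 28.3, 26.1, 27.8 and 29.9 CPM in control and 33.5, 30.9, 33.4 and 32.4 CPM in ketogenic libraries. DESeq2 called Mrpl9, Mrpl14, Mrpl28, Mrpl33, Mrpl35 and Mrps26 higher and Mrpl32, Mrpl39 and Mrps15 lower.

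By edgeR neither subunit held more than 1 call, while 3.30% of all tested genes were higher and 3.22% lower. Over all genes the shares were 12.1% and 12.5% at an unadjusted p under 0.05 and 6.02% and 5.84% by DESeq2. In the large subunit 1 of 49 genes (2.04%) rose and 0 fell by edgeR. At an unadjusted p under 0.05, 9 (18.4%) were higher and 4 (8.16%) lower, and by DESeq2 5 (10.2%) and 2 (4.08%). Of the 49 changes 31 were positive, and their median was 0.03. In the small subunit 0 of 29 rose and 1 (3.45%) fell by edgeR. At an unadjusted p under 0.05, 7 (24.1%) were higher and 2 (6.90%) lower, and by DESeq2 1 (3.45%) and 1 (3.45%). Of the 29 changes 18 were positive, and their median was 0.05. Symbols do not always follow structure, since Mrps30 and Mrps18a lie in the large subunit and Mrps36 is known as part of the oxoglutarate dehydrogenase complex. With these 3 placed by structure the large subunit had 51 members and the small 26, each with a median of 0.04 and the same calls. Without single libraries the large subunit's median ran from 0.03 to 0.05 and the small subunit's from 0.01 to 0.09.

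Members with and without a bacterial counterpart were also counted apart, and by edgeR no class held more than 1 call. Mrps18a, Mrps28, Mrpl55 and Mrps36 were left out of these classes, and Mrps30 was counted in the large subunit. Among 29 large subunit proteins with bacterial counterparts 1 (3.45%) rose and 0 fell by edgeR (median 0.05, 21 positive). At an unadjusted p under 0.05 they had 6 (20.7%) and 1 (3.45%), and by DESeq2 5 (17.2%) and 1 (3.45%). Among the 20 mitochondria-specific ones 0 rose and 0 fell by edgeR (median 0.02), with 4 and 3 at an unadjusted p under 0.05 and 0 and 1 by DESeq2. Among 16 conserved small subunit proteins 0 rose and 1 fell by edgeR (median 0.06), with 4 and 2 at an unadjusted p under 0.05 and 0 and 1 by DESeq2. Among 9 mitochondria-specific ones 0 rose and 0 fell by edgeR (median 0.003). At an unadjusted p under 0.05 they had 2 (22.2%) and 0, and by DESeq2 1 (11.1%) and 0. Over all tested genes the shares higher and lower were 3.30% and 3.22% by edgeR. They were 12.1% and 12.5% at an unadjusted p under 0.05 and 6.02% and 5.84% by DESeq2.

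Members chosen for their roles showed small differences, and none of them passed the threshold. The stalk recruits translation factors to the ribosome, and its proteins Mrpl10, Mrpl11 and Mrpl12 had log2 changes of 0.01 ± 0.06, 0.07 ± 0.07 and -0.08 ± 0.08 (edgeR adjusted p = 0.922, 0.606 and 0.595). Mrpl12 has also been described as a partner of the mitochondrial RNA polymerase, and its 56.3, 52.4, 49.9 and 43.1 CPM in control enclosed its 49.7, 44.05, 51.4 and 45.6 CPM in ketogenic libraries. Mrpl58, a peptidyl-tRNA hydrolase of the release factor family that became a large subunit protein, was at 0.02 ± 0.08 (edgeR adjusted p = 0.918). Mrps12, at the decoding centre, had 0.07 ± 0.08 (edgeR adjusted p = 0.615).

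The 3 Mrps18 paralogs descend from 1 bacterial protein, and their fitted changes had different signs. Mrps18a was at 35.7, 34.3, 34.3 and 41.0 CPM in control and 38.0, 41.7, 40.3 and 41.2 CPM in ketogenic libraries (log2 0.15 ± 0.07, edgeR adjusted p = 0.215). Control replicate 4 again lay with the ketogenic libraries, and without it the adjusted p was 0.0473. Mrps18b was at 17.5, 16.8, 17.7 and 16.1 CPM in control and 17.55, 14.9, 14.01 and 14.8 CPM in ketogenic libraries (-0.15 ± 0.09, edgeR adjusted p = 0.33). Mrps18c had a change of 0.14 ± 0.10 (edgeR adjusted p = 0.417). Each paralog's groups overlapped, and the differences between paralogs were not tested. Mrps30 stood at 0.20 ± 0.08 and Mrps36 at -0.06 ± 0.10 (edgeR adjusted p = 0.14 and 0.764).

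Levels per length differed far more between members than between diets. On the deposited FPKM scale (fragments scaled by gene length and library size), mean levels over 8 libraries ran from 1.49 (Mrpl14) to 70.9 (Mrps21), a 47.6-fold range with a median of 18.0, and the median member stood at the 80.4th percentile of all symbols. The median coefficient of variation among the 4 libraries of a diet was 6.86% in control and 6.70% in ketogenic libraries. On this scale large subunit levels had a median of 17.5 FPKM and small subunit levels 18.9 FPKM, an order that depends on the lengths used (given below).

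The most abundant small subunit messages were Mrps21, a protein with a bacterial counterpart, at 71.8 ± 3.41 FPKM in control and 70.0 ± 5.59 in ketogenic libraries (SD, n = 4 each), and Mrps18a at 42.0 ± 3.94 and 46.7 ± 2.55. In the large subunit these were Mrpl42, which is mitochondria-specific, at 63.8 ± 3.31 and 59.8 ± 3.39 FPKM, and Mrpl12 at 51.3 ± 5.24 and 48.7 ± 2.54. Within each diet the order Mrps21, Mrpl42, Mrpl12 and Mrps18a held for the means, though Mrpl12 and Mrps18a lay within each other's SD in ketogenic libraries. Lowest were Mrps35 (6.48 ± 0.43 and 6.39 ± 0.43 FPKM), which is mitochondria-specific, and Mrps14 (6.12 ± 0.63 and 7.06 ± 0.98 FPKM), which has a bacterial counterpart. In the large subunit they were Mrpl14 (1.32 ± 0.12 and 1.66 ± 0.16) and Mrpl1 (3.03 ± 0.28 and 2.69 ± 0.22), whose counterpart forms the mobile L1 stalk of the ribosome. None of these 8 genes passed the test between diets.

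The length behind FPKM sets part of this order. The deposited length of Mrpl14 is 7525 bases, 11.7 times the 645 bases of the GENCODE transcript nearest to it in length, and 7 members had a length more than 2 times that of their nearest transcript. With the nearest transcript lengths, Mrpl14 moved from 1.49 to 17.4 FPKM, the range narrowed to between 3.69 (Mrpl1) and 74.1 (Mrps21), which is 20.1-fold, and the median was 18.8. The large subunit's median was then 19.9 and the small subunit's 17.4, the reverse of the deposited order. Ranks near the top also changed. Mrpl12 (63.8) stood above Mrpl42 (62.9), Mrpl41 moved from 20.1 to 62.8, and Mrps5 (45.9) stood above Mrps18a (43.35). Mrpl41 and Mrps5 were named after their values were seen. Fold changes of the main fit, which uses counts, do not depend on this length. It does enter the fits with a trend on GC and length removed and those on FPKM. With limma on log2(FPKM + 1) the log2 change of Mrpl14 was 0.19, beside 0.32 in the main fit.

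**Figure D3:**
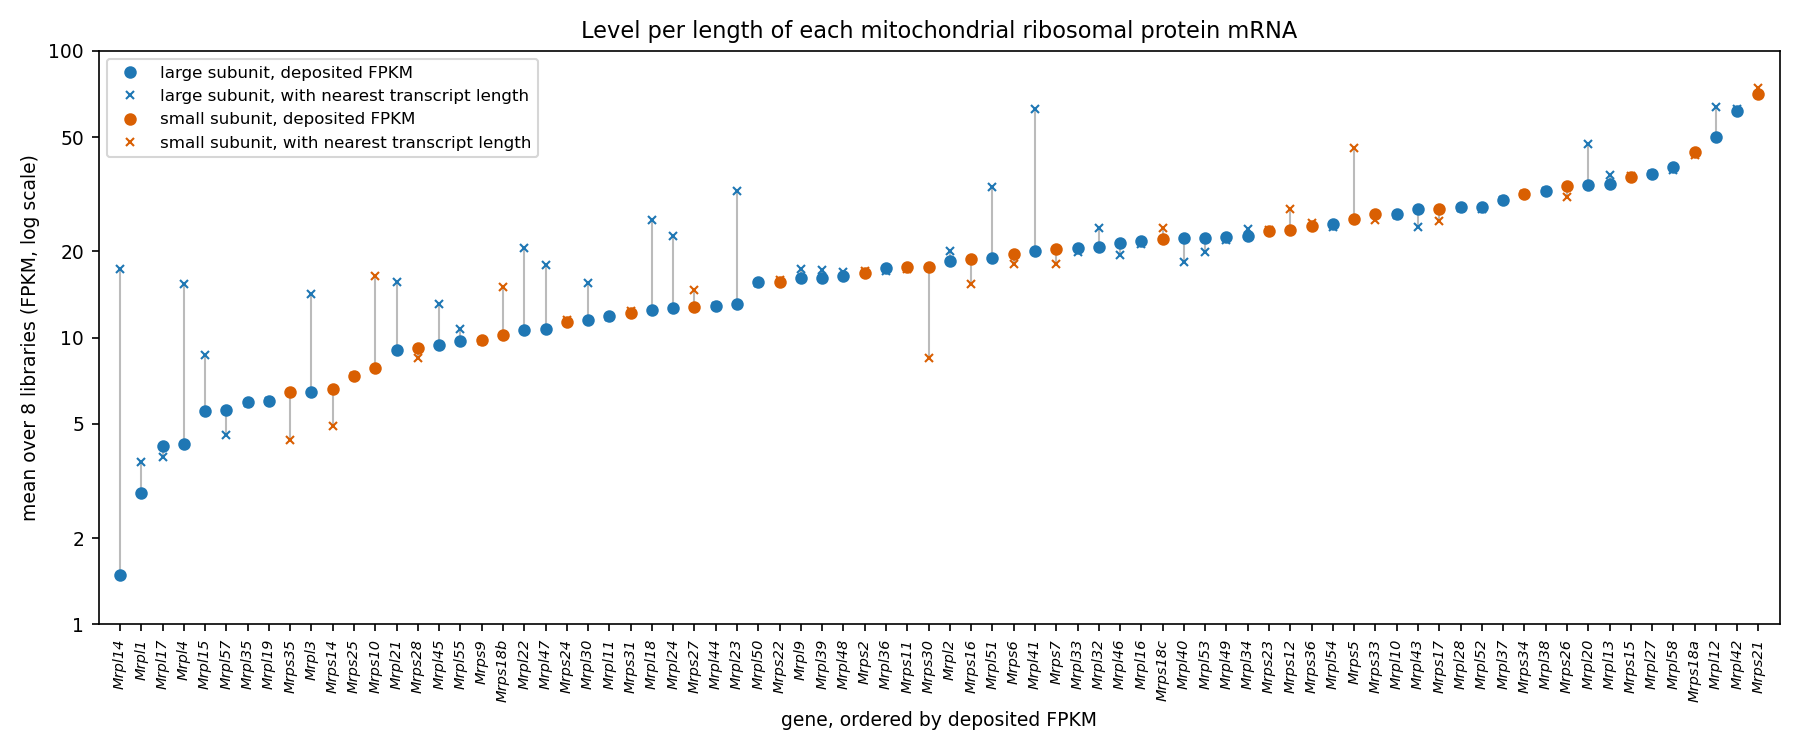
Mean FPKM over 8 libraries of each member on a log scale, as deposited (circles) and recomputed with the nearest GENCODE transcript length (crosses), large subunit in blue and small subunit in orange. Deposited levels run from 1.49 to 70.9, and the cross of Mrpl14, at 17.4, lies far above its circle.

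Library by library, the groups overlapped on each summary of the members. Of the 78 genes, 32, 32, 44 and 39 were above their own 8-library mean in control replicates 1 to 4, and 31, 39, 57 and 45 in ketogenic replicates 1 to 4. Ketogenic replicate 3 was highest and ketogenic replicate 1 lowest. The median deviation of log2 CPM from each gene's mean was -0.04, -0.04, 0.01 and -0.01 in control and -0.03, 0.00, 0.08 and 0.03 in ketogenic libraries. Small subunit members alone averaged -0.04 ± 0.06 in control and 0.04 ± 0.07 in ketogenic libraries (mean and SD of 4 library medians), with ranges of -0.10 to 0.02 and -0.04 to 0.12.

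The balance of the subunits was within the spread of the libraries. By symbol and deposited length, summed FPKM of the large subunit was 1.55 ± 0.05 times that of the small subunit in control (1.49 to 1.61). It was 1.504 ± 0.05 times in ketogenic libraries (1.46 to 1.57), and the groups overlapped. The difference of -0.05 ran from -0.07 to -0.03 when single libraries were left out. With subunits placed by structure the ratio was 1.92 ± 0.07 in control and 1.88 ± 0.05 in ketogenic libraries. With nearest transcript lengths it was 1.81 ± 0.07 and 1.775 ± 0.05, and the groups overlapped on both scales. Summed over all members, FPKM was 1507 to 1555 in control and 1522 to 1591 in ketogenic libraries.

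Cytosolic ribosomal proteins and nuclear complex I subunits, the mitochondrial ribosome's counterpart in the cytosol and a complex it helps to build, are given beside these values. Among 76 cytosolic ribosomal protein genes 38 rose and 0 fell (median log2 change 0.23), and among 37 complex I genes 7 rose and 0 fell (median 0.15). Library medians of the cytosolic genes' deviations ran from -0.20 to 0.0037 in control and from -0.0109 to 0.23 in ketogenic libraries, and those of complex I from -0.11 to -0.0064 and from 0.0011 to 0.13. Complex I thus had no overlap between diets, while large and small mitochondrial subunits did. These lists share the same 8 libraries, and the difference between lists was not tested.

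**Figure D4:**
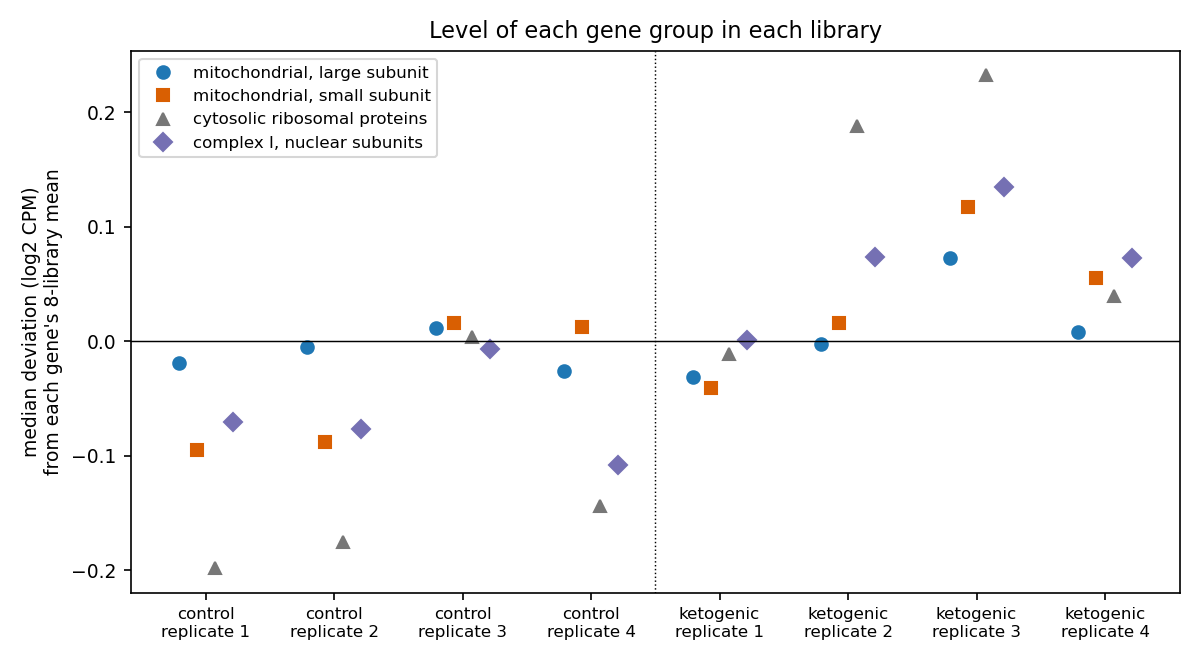
Median deviation of log2 CPM from each gene's 8-library mean, per library, for large (circles) and small (squares) mitochondrial ribosomal subunits, cytosolic ribosomal proteins (triangles) and nuclear complex I subunits (diamonds). Diet separates the complex I values, while the mitochondrial ribosomal values of control replicate 3 lie above those of ketogenic replicate 1.

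Members are short genes, and in these libraries the diet effect varied with gene length and GC content. Their median length was 1412 bases, beside 3666 over all tested genes, and their median GC content 51.3%, beside 50.3%. Over all tested genes the median log2 change was 0.08 in the shortest of 10 equal bins (206 to 1416 bases), which holds 40 of the 78 members, and -0.05 in the longest, and it was -0.12 in the bin of lowest GC and 0.08 in that of highest GC. The 40 members in the shortest bin had a median of 0.05. The 3453 tested genes with lengths between the members' quartiles (920 to 2359 bases) had a median of 0.03 and 6.37% past the threshold.

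With a smooth trend on GC and length removed from each library, 0 members were higher and 1, Mrps15, was lower, beside 1.04% and 1.03% of all tested genes. Mrps15 then had a log2 change of -0.33 (edgeR adjusted p = 0.0259) and Mrpl9 one of 0.27 (adjusted p = 0.0628). The members' median was 0.01 (0.0145), that of all genes 0.01, of the large subunit 0.0075 and of the small subunit 0.02. The same correction left 14 cytosolic ribosomal protein genes higher and 1 lower (median 0.15) and 1 complex I gene higher and 0 lower (median 0.04).

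Among the members themselves the relation to length was weak. The 39 at or below their median length had a median change of 0.05 with 27 positive, and the 39 above it 0.01 with 22 positive. Pearson's r across genes, which are not independent replicates and share libraries, between change and log2 length was -0.10 over 78 members, 0.03 over the 49 of the large subunit, -0.38 over the 29 of the small subunit and -0.12 over 14785 tested genes. With GC content r was 0.16 over members and 0.24 over those tested genes. Members at or below their median GC had a median change of 0.03 and those above it 0.07.

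**Figure D5:**
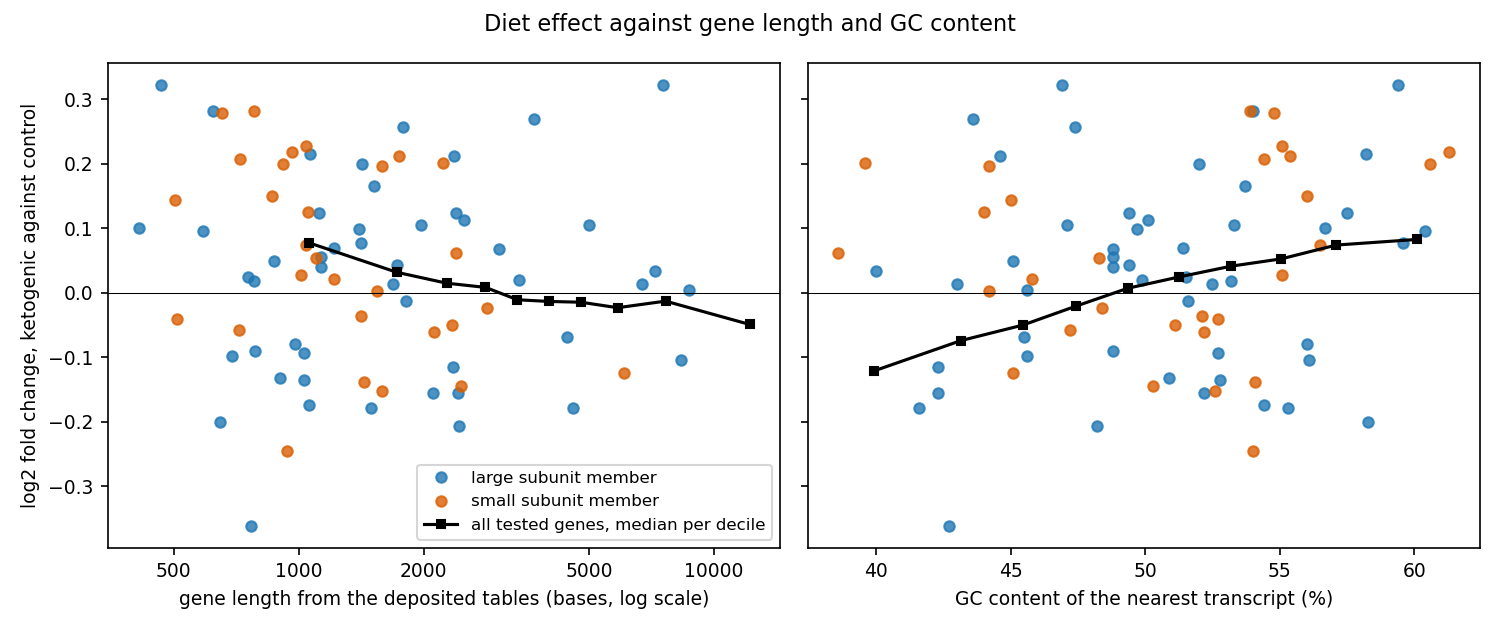
Log2 fold change of each member against gene length (left, log scale) and GC content (right), large subunit in blue and small in orange, with the median of all tested genes per bin (10 equal bins) as black squares. The all-gene median falls from 0.08 to -0.05 with length and climbs from -0.12 to 0.08 with GC, and members scatter widely around it.

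The motifs searched include those of NRF1, GABP and YY1, factors known for their part in nuclear genes of mitochondria. RefSeq promoters were matched for 69 of the 78 members (75 promoters). The ETS motif, the core recognised by GABP among other factors, was in 34.7% of member promoters, 14.9% of those of the other tested genes and 8.86% of all promoters. NRF1 matches were in 17.3%, 8.57% and 4.60% and YY1 matches in 10.7%, 2.45% and 1.40%. The E-box was in 9.33%, 9.26% and 7.15%, the SP motif in 52.0%, 59.7% and 35.7%, and the TATA box in 6.67%, 7.48% and 13.6%. By subunit, the NRF1 motif was in 20.8% of large and 11.1% of small subunit promoters and the ETS motif in 31.2% and 40.7%.

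The genes lie on 17 chromosomes, 11 of them on chromosome 11, and many sit close to another gene. Of the 78, 18 (23.1%) had a protein-coding neighbour transcribed away from them with a start within 1000 bases, beside 9.05% of 14538 tested coding genes. The starts of these pairs lay 26 to 935 bases apart. The changes within pairs had a Pearson's r of 0.08 over 18 pairs, and 10 pairs had the same sign. Whether the pairs are regulated together was not tested. Among the 18 partners 2 rose and 0 fell by edgeR, while 3.30% of all tested genes were higher and 3.22% lower. The 2 were the ribosomal protein gene Fau (0.30, edgeR adjusted p = 0.0157) beside Mrpl49 (0.04) and the histone chaperone gene Hira (0.28, adjusted p = 0.0379) beside Mrpl40 (-0.17). Mrpl32, at -0.36, starts 75 bases from the proteasome gene Psma2, at 0.15. These partners were named after their values were seen.

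Overlap with other genes limits single values. GENCODE places 26 members over another protein-coding gene, 23 of them on the opposite strand and 4 on the same strand, with some counted under both. The 26 had a median log2 change of 0.11 and the other 52 one of 0.01. Mrpl46 (-0.09 ± 0.08) and Mrps11 (0.23 ± 0.10) overlap each other on opposite strands, so their reads could be shared. For 3 members, Mrpl23, Mrpl48 and Mrps36, GENCODE names a pseudogene, and reads of near-identical copies could be split.

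Proteins of the mitochondrial ribosome with other names gave 1 call among 5 genes, with a median log2 change of 0.12. Dap3, a GTP-binding protein of the small subunit, rose from 47.9, 48.4, 47.4 and 49.3 CPM in control to 57.7, 54.1, 60.5 and 59.35 CPM in ketogenic libraries. The groups were apart, with means of 48.3 ± 0.83 and 57.9 ± 2.81 CPM (SD, n = 4 each), a log2 change of 0.26 ± 0.06, 1.20-fold, and an edgeR adjusted p of 0.0204. With the trend on GC and length removed the adjusted p was 0.0465, and without control replicate 1, 2 or 3 the call was lost, with an adjusted p of up to 0.0658. The remaining genes were Ptcd3, a pentatricopeptide repeat protein of the small subunit (-0.21 ± 0.07, edgeR adjusted p = 0.0765), Gadd45gip1 (0.20), Aurkaip1 (0.12) and Chchd1 (-0.01).

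Factors that build the ribosome gave 1 edgeR call among 27 tested of 29 listed (3.7%, beside 6.52% of all tested genes), with a median of 0.05. Mpv17l2, an inner membrane protein needed for ribosome assembly, stood at 15.03, 13.2, 17.95 and 12.2 CPM in control and at 10.2, 9.86, 10.8 and 11.8 CPM in ketogenic libraries. It fell by 0.45 on the log2 scale (SE 0.12, edgeR adjusted p = 0.0387), from 14.6 ± 2.54 to 10.7 ± 0.86 CPM (SD, n = 4 each), and the groups did not overlap. Its call was kept without control replicate 4 or ketogenic replicate 4 and was lost without each of the other 6 libraries, with an adjusted p of up to 0.116.

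Of 13 mitochondrial translation factors tested, from 14 listed, 0 passed by edgeR or DESeq2, with 2 higher and 1 lower at an unadjusted p under 0.05 and a median of -0.06. Of 20 mitochondrial aminoacyl-tRNA synthetases, which charge transfer RNAs, 1 (5.0%) rose and 1 (5.0%) fell by edgeR (median 0.05). Over all tested genes 3.30% were higher and 3.22% lower. Mars2, the methionine enzyme, was at 9.09, 10.6, 8.54 and 9.42 CPM in control and 6.32, 6.87, 5.94 and 5.72 CPM in ketogenic libraries, with no overlap. This was 1.51-fold lower, a log2 change of -0.60 ± 0.12 (edgeR adjusted p = 0.0153), the adjusted p was 0.0557 without control replicate 2, and with the trend on GC and length removed the change was -0.47 with an adjusted p of 0.0544. Lars2, the leucine enzyme, was at 26.1, 29.85, 30.3 and 34.3 CPM in control and 38.4, 36.3, 37.0 and 38.3 CPM in ketogenic libraries, a rise of 0.31 ± 0.08 (edgeR adjusted p = 0.0332) with no overlap. Its call stood without control replicate 4 or ketogenic replicate 3, was lost without each of the other 6 libraries, with an adjusted p of up to 0.106, and with the trend removed the log2 change was 0.30 with an adjusted p of 0.0576.

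Genes for mitochondrial transcription and mRNA handling, 13 in all, had 0 past the threshold by edgeR, 3 higher and 2 lower at an unadjusted p under 0.05, 1 higher and 1 lower by DESeq2, and a median of 0.09. Among 9 nuclear regulators of mitochondrial genes 1 (11.1%) fell and 0 rose by edgeR, with a median of -0.08. At an unadjusted p under 0.05, 2 (22.2%) were lower and 1 (11.1%) higher, and by DESeq2 2 (22.2%) were lower and 0 higher. The groups did not overlap for 4 (44.4%), all of them lower. Shares lower over all tested genes were 3.22% by edgeR, 12.5% unadjusted, 5.84% by DESeq2 and 6.51% without overlap. Ppargc1a, a coactivator of mitochondrial biogenesis, was at 84.1, 71.3, 74.0 and 73.5 CPM in control and 61.85, 61.9, 69.0 (68.95) and 61.8 CPM in ketogenic libraries. All ketogenic values were below all control values, and the level fell by 0.25 (SE 0.07) on the log2 scale (edgeR adjusted p = 0.0349). Without control replicate 4 or ketogenic replicate 3 the call stood, without each of the other 6 libraries it was lost, with an adjusted p of up to 0.112, and with the trend on GC and length removed the change was -0.14 with an adjusted p of 0.295. The factors whose motifs were counted above had changes of -0.03 (Nrf1), -0.10 (Gabpa) and 0.04 (Yy1), with edgeR adjusted p-values of 0.893, 0.426 and 0.682.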

How the data were processed

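From db/db brain, 4 control and 4 ketogenic RNA-seq libraries were used, grouped by their labels. The authors deposited a count table of whole numbers by gene symbol and the same libraries as FPKM, which equal the count over 1 length per gene and the column total (largest relative spread of the implied length 1.79e-07). The submitters' processing notes name GRCm38 and mm10 as builds. Which aligner, counter, strand setting and annotation were used is not given in the sources used here.

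Counts were fitted with edgeR 4.0.16 (R 4.3.3), TMM factors, filterByExpr (3088 symbols left out) and the quasi-likelihood F test on diet alone, with Benjamini-Hochberg adjustment over 14895 genes and a threshold of 0.05. CPM are TMM-scaled. Medians over lists carry no test. The depth was 34450860 to 40233361 counts per library. Each SE comes from the edgeR fit and reflects the spread between libraries as well as depth.

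Alternatives were other scalings and filters, DESeq2 1.42.0, limma 3.58.1 (voom, and log2(FPKM + 1) or log2(FPKM + 0.1)), a replicate block, removal of a loess trend (span 0.3) on GC and length, and leaving out libraries.

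Named genes are members past the threshold, the 2 highest and 2 lowest per subunit by FPKM, 10 members fixed by role (Mrps18a to Mrps18c, Mrps30, Mrps36, Mrpl10 to Mrpl12, Mrpl58 and Mrps12), up to 3 called genes per related list, and the 3 largest changes in each direction that missed the threshold. Members and lists were chosen with earlier results of these data known. Coordinates are GENCODE M21 bounds on GRCm38, and promoters are from RefSeq, GRCm38.p6. Mitochondrially encoded genes were not analysed here.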

Additional observations from a re-analysis of the deposited data

Results flagged for a closer look

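Among 64 groups of 4 libraries checked, 4 held a library set apart, with a gap to its nearest neighbour that passed Dixon's 95% limit as a share of the group's range, and chance alone gives about 1 in 20. Mrpl32 was at 15.08 CPM in ketogenic replicate 4, the highest of its group, with a gap of 0.855 of the range. Mrpl34 was at 11.98 CPM in the same library, the lowest of its group (0.851). Mrpl33 was at 11.52 CPM in ketogenic replicate 2, the highest of its group (0.888). Ppargc1a was at 68.95 CPM in ketogenic replicate 3, the highest of its group, with the other 3 libraries between 61.82 and 61.86 CPM (0.994).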

How the results depend on the processing

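The members' count of 2 became 1 with library size alone, with no filter, with limma-voom and on removal of the GC and length trend, 9 with DESeq2, and 0 with limma on log2(FPKM + 1), with limma on log2(FPKM + 0.1) and without ketogenic replicates 3 and 4 together. The large subunit's count of 1 became 7 with DESeq2 and 0 with limma on either FPKM scale, with the trend removed and without ketogenic replicates 3 and 4. The small subunit's count of 1 became 2 with DESeq2 and 0 with library size alone, no filter, limma-voom, limma on either FPKM scale and without ketogenic replicates 3 and 4. Over all genes the count of 971 became 1767 with DESeq2, 64 and 88 with limma on log2(FPKM + 1) and log2(FPKM + 0.1), 308 with the trend removed and 90 without ketogenic replicates 3 and 4. The causes were not tested.

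Leaving out single libraries gave 0 to 11 members, 0 to 6 of the large and 0 to 5 of the small subunit, and 146 to 1900 of all genes. Medians stayed positive, at 0.02 to 0.06 for members, 0.03 to 0.05 for the large and 0.01 to 0.09 for the small subunit.

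Whether replicate numbers pair the libraries was not tested. Same-numbered libraries had correlations of 0.02, 0.05, 0.08 and 0.04. These are not correlations of the levels themselves, which were close in all 8 libraries. The other pairs ran from -0.09 (control replicate 2 with ketogenic replicate 3) to 0.09 (control replicate 2 with ketogenic replicate 4). With a replicate block, 2 members and 1528 of all genes passed, beside 2 and 971 without it. With the block and the trend removed together 2 members passed, Mrps15 and, in place of Mrpl9, Mrpl35 (log2 change 0.35, edgeR adjusted p = 0.0446), which was named after its values were seen.

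Up to 9 of the 78 members changed sign in a single alternative, and none of them passed the threshold in that fit. Those among the named genes were as follows. With the trend removed Mrps35 was at 0.0005, Mrpl10 at -0.0176, Mrpl58 at -0.0751 and Mrps12 at -0.0121, and with the replicate block added Mrpl10 was at -0.0178, Mrpl58 at -0.0774 and Mrps12 at -0.013. Over the fits without single libraries, Mrps35 ran from -0.0731 to 0.0153, Mrps21 from -0.0814 to 0.0006, Mrps36 from -0.1162 to 0.0302, Mrpl10 from -0.02 to 0.0337 and Mrpl58 from -0.0369 to 0.0605. Mrpl10 was at -0.0303 without ketogenic replicates 3 and 4.

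The calls of Mrpl9 and Mrps15 were lost in 11 and 13 of 20 alternatives, with adjusted p up to 0.128 and 0.297, and no sign turned. At 249 or more counts per member and 4 libraries a diet, most intervals excluded 1.5-fold changes, while changes of about 1.2-fold lay near the limit of the test.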
